A study of Homo sapiens with 6 samples.

Results

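AP-1 is a family of dimeric transcription factors built from FOS, JUN and related leucine zipper proteins, and the immediate early genes are those that a cell transcribes first after a growth factor, stress or cytokine signal. The 10 genes described here, out of 58825 in the data, were chosen by symbol: the FOS subunits FOS, FOSL1 and FOSL2, the JUN subunits JUN, JUNB and JUND, and the immediate early genes EGR1, IER2, IER3 and MAFF. They were measured by RNA-seq in NCI-H460, a human lung cancer line that the labels call an adenocarcinoma line, after lentiviral infection with an shRNA against GFP (NC-shRNA, 3 libraries) or an shRNA against PRMT5 (PRMT5-shRNA, 3 libraries). PRMT5 is an arginine methyltransferase, and the comparison asks which transcripts differ when it is knocked down in otherwise untreated cells grown in RPMI-1640. Both groups carried a lentivirus and a hairpin, and the methods give puromycin selection for the knockdown cells. The labels do not say which PRMT5 hairpin was used, so the comparison of 1 knockdown population with 1 control population cannot separate PRMT5 loss from an effect of that hairpin.

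FOS proteins cannot pair with each other and bind DNA as dimers with a partner such as a JUN protein, whereas JUN proteins also pair among themselves. The dimers bind a short site, the TPA response element or TRE, and some bind the related cyclic AMP response element or CRE. Transcription of FOS and EGR1 is switched on within minutes through serum response factor, which binds the CArG box, and through factors at CREs, and their mRNAs are unstable. FOSL1, FOSL2 and JUND are longer lived subunits, and in lung cancer lines AP-1 is known for driving genes of invasion and matrix turnover.

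The promoters of 3 members are shown as examples that hold a TATA box, a CRE, a CArG box or an EGR site upstream of the annotated start. Each line gives the 250 bases before the RefSeq start site (GRCh38.p14), 5′ to 3′ on the strand of the gene, with matches in capitals. JUNB (chr19:12791236-12791485, plus strand) has a TATA box at positions -31 to -26 from the start site, JUND (chr19:18281623-18281872, minus strand) has a CRE at -200 to -193, and EGR1 (chr5:138465229-138465478, plus strand) has CArG boxes at -105 to -96 and at -83 to -74 and an EGR site at -198 to -190.
JUNB: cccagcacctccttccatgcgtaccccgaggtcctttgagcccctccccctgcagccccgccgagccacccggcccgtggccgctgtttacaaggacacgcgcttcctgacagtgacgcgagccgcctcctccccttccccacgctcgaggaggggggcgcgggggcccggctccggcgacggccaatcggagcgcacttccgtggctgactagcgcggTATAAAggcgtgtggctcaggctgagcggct
JUND: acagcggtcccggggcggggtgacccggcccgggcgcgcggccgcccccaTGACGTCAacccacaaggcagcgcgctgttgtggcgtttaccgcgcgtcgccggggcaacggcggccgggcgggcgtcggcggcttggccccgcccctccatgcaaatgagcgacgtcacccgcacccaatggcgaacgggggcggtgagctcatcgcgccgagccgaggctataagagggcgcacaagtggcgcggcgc
EGR1: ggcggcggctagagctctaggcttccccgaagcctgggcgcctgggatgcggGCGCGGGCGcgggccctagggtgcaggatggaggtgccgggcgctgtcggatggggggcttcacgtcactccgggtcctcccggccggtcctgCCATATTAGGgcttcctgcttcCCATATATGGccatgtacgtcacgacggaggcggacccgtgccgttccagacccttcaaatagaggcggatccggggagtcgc

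The letters searched were TGACTCA for the TRE, TGACGTCA for the CRE, GCGNGGGCG for the EGR site and the CArG box by name, all on both strands, and TATAAA for the TATA box on the gene's own strand. No matches overlapped. Of 35116 promoters of the same length, 4.2% held a TRE, 1.65% a CRE, 8.41% an EGR site, 1.16% a CArG box and 6.8% a TATA box. Promoter entries were matched for 8 of the 10 members, with 2 entries for MAFF. Besides those printed, FOS had a TATA box at -33 to -28 and MAFF, in 1 of its entries, a CRE at -54 to -47, whereas the windows of FOSL2, JUN and IER2 held none of these letters. No member's window held a TRE. FOSL1 and IER3 were not searched, nor were sites farther upstream or with other letters, so a window without a match does not show that an element is absent.

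PRMT5 itself was at 143, 127 and 128 CPM (counts relative to the library total, as scaled by edgeR's TMM factors) in the NC-shRNA libraries and at 45.8, 45.6 and 38.3 CPM in the PRMT5-shRNA libraries, a log2 fold change of -1.62 ± 0.0943 (SE) with a Benjamini-Hochberg adjusted p of 0.0063 from the quasi-likelihood test of edgeR, used throughout. Total counts per library ranged from 53531257 to 70518401, and mitochondrial genes took 12.5% to 13.5% of them. The 6 epithelial markers summed to 1753 to 1879 CPM in NC-shRNA against 1523 to 1650 CPM in PRMT5-shRNA libraries, with 5 below 0 in log2 fold change, 2 of them without overlap between the groups and 1 lower at an unadjusted p under 0.05. Among them KRT8 was at 716 to 926 CPM and EPCAM at 0.929 to 1.56 CPM, and the lung lineage markers summed to 0.852 CPM at most, with SCGB1A1 at 0 in all libraries. Of 11 heat shock genes, 10 were lower at an unadjusted p under 0.05. The 11 summed to 5459 to 7060 CPM in NC-shRNA against 4242 to 4558 CPM in PRMT5-shRNA libraries. Of all genes tested, 6.29% were lower at that threshold and 10.7% were lower without overlap between the groups. The part of the epithelial and heat shock shifts in the results below was not tested. In such bulk libraries fewer cells of a kind and less RNA per cell cannot be told apart, and the p-values measure the spread between libraries that the methods call biological replicates.

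Across all 10 members, none passed an adjusted p of 0.05, where 14 of the 20295 genes tested did (0.0690%). JUNB, the member with the smallest spread, was the only one higher at an unadjusted p under 0.05, where 6.54% of all genes were higher, and no member was lower at that threshold, where 6.29% of all genes were. JUNB and FOSL2 had every PRMT5-shRNA library above every NC-shRNA library, which 11.0% of all genes tested showed, and no member showed the opposite, which 10.7% of all genes showed. The fitted log2 fold change was above 0 for 8 members and below 0 for FOS and JUND. The median of the members was 0.21, with a range of -0.17 to 0.59, beside a median of 0.01 over all genes tested. All 10 passed the filter on low counts.

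**Figure D1:**
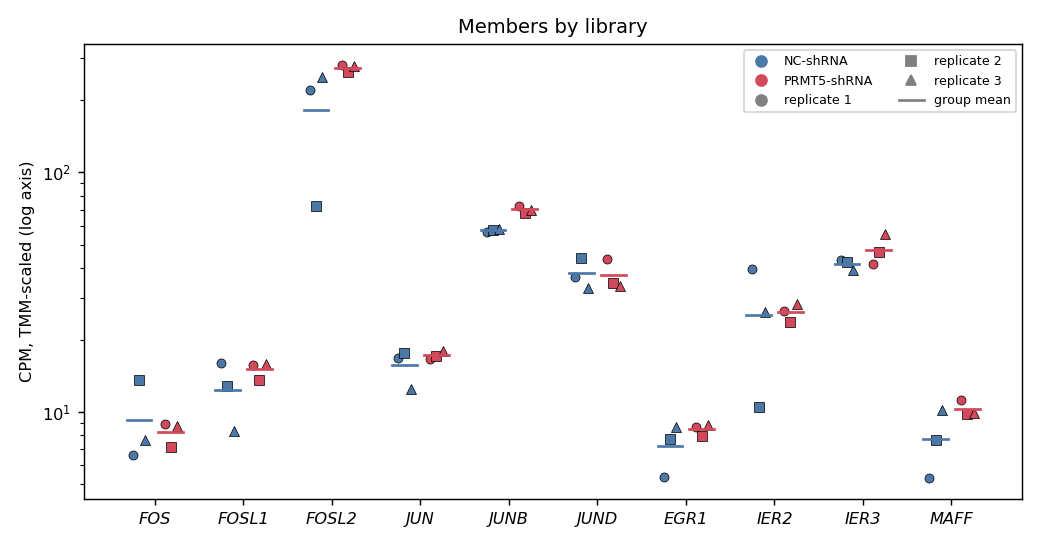
TMM-scaled CPM (vertical axis, log scale) of the 10 members in each of the 6 libraries, with NC-shRNA and PRMT5-shRNA libraries as points, a shape for each replicate number, and a line at each group mean. FOSL2 and IER2 each have 1 NC-shRNA library, replicate 2, far below the others, whereas the JUNB points of each group lie close together.

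JUNB was the member with the clearest separation. JUNB (ENSG00000171223, chr19:12791496-12793315, plus strand) encodes a JUN subunit that pairs with FOS proteins and, relative to JUN, is a weak activator at many AP-1 sites. It was at 56.7, 57.6 and 58.2 CPM in NC-shRNA and at 72.6, 67.9 and 69.8 CPM in PRMT5-shRNA libraries, means of 57.5 ± 0.789 and 70.1 ± 2.36 (SD, n = 3 each). All PRMT5-shRNA values exceeded all NC-shRNA values, and the gap between the groups was wider than the spread within either. The log2 fold change was 0.29 ± 0.0591 (SE; 95% interval 0.15 to 0.43), a level 1.22 times that of NC-shRNA, with p = 0.0019 before and 0.185 after adjustment (edgeR), and the exact two-sided permutation test gave 0.10, the smallest value that 3 against 3 libraries allow. JUNB was higher at an unadjusted p under 0.05 in all 18 alternative analyses, with adjusted p from 0.0535 to 0.426. HOOK2, which overlaps JUNB on the other strand, had 472, 496 and 493 counts in NC-shRNA and 415, 585 and 503 counts in PRMT5-shRNA libraries, beside 3618 to 4750 counts for JUNB.

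JUN (ENSG00000177606, chr1:58780788-58784327, minus strand) encodes c-Jun, the main partner of FOS and the substrate of JNK kinases. Its level was 16.9, 17.6 and 12.5 CPM in NC-shRNA and 16.6, 17.1 and 17.9 CPM in PRMT5-shRNA libraries. The PRMT5-shRNA values lay within a narrow range that NC-shRNA replicates 1 and 2 shared, and NC-shRNA replicate 3 was lower. This gave a log2 fold change of 0.14 ± 0.145 (SE; 95% interval -0.21 to 0.48), with an adjusted p of 0.736 in edgeR.

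JUND (ENSG00000130522, chr19:18279760-18281622, minus strand) encodes a JUN subunit that many cells express without stimulation. It was at 36.7, 44.0 and 33.0 CPM in NC-shRNA and at 43.6, 34.5 and 33.6 CPM in PRMT5-shRNA libraries, so the highest libraries of the groups were at about the same level and the groups overlapped over nearly their whole range. Its log2 fold change was -0.03 ± 0.145 (SE; 95% interval -0.37 to 0.32), and the sign turned positive when scaled by library totals alone (0.02) or when FPKM was fitted (0.03).

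FOSL2 had the largest fitted fold change of the members and the widest spread in the controls. FOSL2 (ENSG00000075426, chr2:28392448-28417312, plus strand), also known as FRA2, encodes a FOS subunit without the strong activation domain of FOS. It was at 222, 72.2 and 251 CPM in NC-shRNA and at 282, 262 and 278 CPM in PRMT5-shRNA libraries. The PRMT5-shRNA libraries lay above all NC-shRNA libraries, and NC-shRNA replicate 2 was at 0.276 times the median of the other 5 libraries. Means were 182 ± 96.0 and 274 ± 10.6 CPM (SD, n = 3 each). The log2 fold change was 0.59 ± 0.405 (SE; 95% interval -0.37 to 1.55), with an adjusted p of 0.584 in edgeR, and the exact two-sided permutation p was 0.10. Without NC-shRNA replicate 2 the log2 fold change was 0.21 ± 0.0808 (SE), with an unadjusted p of 0.0397 and an adjusted p of 0.475 in the same edgeR test. AC104695.3, which overlaps FOSL2 on the same strand, had 12 to 56 counts beside 5003 to 18321 for FOSL2, and FLJ31356 on the other strand had 18 to 54.

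FOS (ENSG00000170345, chr14:75278774-75282230, plus strand) encodes c-Fos, the subunit whose induction defines the immediate early response. It was at 6.58, 13.6 and 7.61 CPM in NC-shRNA and at 8.87, 7.16 and 8.73 CPM in PRMT5-shRNA libraries. The highest value belonged to NC-shRNA replicate 2, the library in which FOSL2 was lowest, and the other 5 libraries fell within 6.58 to 8.87 CPM. For FOS the fitted log2 change was -0.17 ± 0.279 (SE; 95% interval -0.83 to 0.49; adjusted p = 0.838 in edgeR). Without NC-shRNA replicate 2 it was 0.22, with an unadjusted p of 0.243 in the same edgeR test.

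FOSL1 (ENSG00000175592, chr11:65892049-65900573, minus strand), also known as FRA1, encodes a FOS subunit linked to invasion in carcinoma cells. Its level was 16.1, 12.8 and 8.31 CPM in NC-shRNA and 15.7, 13.5 and 15.9 CPM in PRMT5-shRNA libraries, with NC-shRNA replicate 3 lowest and NC-shRNA replicate 1 highest of the 6. The log2 fold change was 0.28 ± 0.233 (SE; 95% interval -0.27 to 0.83; adjusted p = 0.663 in edgeR). It was 0.51 without NC-shRNA replicate 1 (unadjusted p = 0.0543 in edgeR) and 0.055 without NC-shRNA replicate 3 (unadjusted p = 0.729 in edgeR).

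FOSB, the remaining FOS subunit and no member of the group, was at 2.80, 1.80 and 1.55 CPM in NC-shRNA and at 1.08, 1.02 and 2.69 CPM in PRMT5-shRNA libraries, and the groups overlapped.

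Of the immediate early genes other than the FOS and JUN subunits, EGR1 (ENSG00000120738, chr5:138465490-138469315, plus strand) encodes a zinc finger factor that binds GC-rich sites. It was at 5.33, 7.70 and 8.69 CPM in NC-shRNA and at 8.67, 7.94 and 8.80 CPM in PRMT5-shRNA libraries, and NC-shRNA replicate 1 was the lowest while the other 5 lay close together. Its log2 fold change was 0.23 ± 0.191 (SE; 95% interval -0.23 to 0.68; adjusted p = 0.669 in edgeR). It was 0.046 without NC-shRNA replicate 1 and 0.37 without NC-shRNA replicate 3.

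MAFF (ENSG00000185022, chr22:38200767-38216511, plus strand) encodes a small MAF protein, which has a leucine zipper and no activation domain. It was at 5.29, 7.62 and 10.2 CPM in NC-shRNA and at 11.2, 9.76 and 9.87 CPM in PRMT5-shRNA libraries. NC-shRNA replicate 3 reached into the PRMT5-shRNA range and replicates 1 and 2 lay below it. Fitted over all 6 libraries, the log2 fold change was 0.42 ± 0.234 (SE; 95% interval -0.14 to 0.97; adjusted p = 0.497 in edgeR), and without NC-shRNA replicate 3 it was 0.67, with an unadjusted p of 0.0149 and an adjusted p of 0.276 in the same test. Without NC-shRNA replicate 1 it was 0.21 (unadjusted p = 0.267 in edgeR). PLA2G6, which overlaps MAFF on the other strand, had 155 to 239 counts beside 355 to 683 for MAFF, and their reads can be told apart only if counting used strand.

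IER3 (ENSG00000137331, chr6:30743199-30744554, minus strand) encodes a stress-induced protein that affects cell survival. Its level was 43.1, 42.2 and 39.2 CPM in NC-shRNA and 41.3, 46.4 and 55.2 CPM in PRMT5-shRNA libraries. Only PRMT5-shRNA replicate 1 lay within the NC-shRNA range. IER3-AS1 on the other strand had 0 to 17 counts beside 2254 to 3247 for IER3. The log2 fold change was 0.20 ± 0.114 (SE; 95% interval -0.07 to 0.47; adjusted p = 0.510 in edgeR), and without PRMT5-shRNA replicate 1 it was 0.29, with an unadjusted p of 0.0329 and an adjusted p of 0.448 in the same test, whereas without PRMT5-shRNA replicate 3 it was 0.079 (unadjusted p = 0.426 in edgeR).

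IER2 (ENSG00000160888, chr19:13150415-13154908, plus strand) encodes a nuclear protein that growth factors induce. It was at 39.6, 10.4 and 26.2 CPM in NC-shRNA and at 26.3, 23.8 and 28.3 CPM in PRMT5-shRNA libraries, so that NC-shRNA held both the highest and the lowest library. For IER2 the fitted log2 fold change was 0.04 ± 0.417 (SE; 95% interval -0.94 to 1.03; adjusted p = 0.977 in edgeR), and without NC-shRNA replicate 2 it was -0.33, with an unadjusted p of 0.132 in the same edgeR test.

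**Figure D2:**
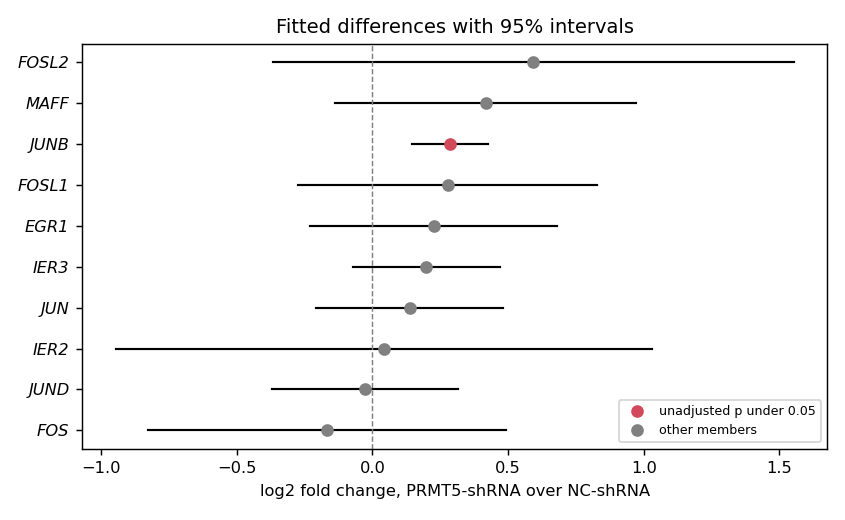
Log2 fold change of each member, PRMT5-shRNA minus NC-shRNA, from edgeR's quasi-likelihood fit (points) with its 95% interval (bars) a dashed line at 0 and members with an unadjusted p under 0.05 coloured. The JUNB interval, 0.15 to 0.43, is the narrowest and the only one above 0, and those of FOSL2 and IER2 are the widest.

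Levels of different genes were compared in FPKM, which accounts for gene length. Over the 6 libraries JUNB was highest with a mean of 29.9 FPKM (range 25.36 to 34.69), followed by IER3 with 28.3 (24.85 to 35.92), FOSL2 with 27.4 (8.45 to 34.39) and JUND with 17.2 FPKM (15.17 to 20.44). IER2 followed with 7.15 FPKM (2.84 to 10.52), FOSL1 with 6.22 (3.75 to 7.41) and JUN with 3.97 (3.02 to 4.46). The least abundant were FOS with 2.34 FPKM (1.68 to 3.57), EGR1 with 2.15 (1.39 to 2.46) and MAFF with 1.37 FPKM (0.77 to 1.74). Ranges of neighbours in this order overlapped at every step except between JUND and IER2, and in NC-shRNA replicate 2 FOSL2, at 8.45 FPKM, also lay within the range of IER2. By the median of the 6 libraries FOSL2 was highest with 30.9 FPKM, above JUNB with 29.7 and IER3 with 26.5. FOS, JUN and EGR1, the best known genes of the rapid response, were among the 4 lowest.

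Within the FOS subunits, FOSL2 made up 74.6%, 47.7% and 83.9% of the summed FPKM of FOS, FOSL1 and FOSL2 in NC-shRNA and 78.1%, 79.6% and 77.7% in PRMT5-shRNA libraries. FOSL2 was the main FOS mRNA in every library, although in NC-shRNA replicate 2 FOSL1 was at 32.2% and FOS at 20.1%, against 4.9% to 5.7% for FOS in the other 5 libraries. The 3 genes summed to 34.0, 17.7 and 35.8 FPKM in NC-shRNA and to 44.0, 39.9 and 44.0 FPKM in PRMT5-shRNA libraries. JUNB made up 55.9%, 52.4% and 60.0% of the summed FPKM of JUN, JUNB and JUND in NC-shRNA and 58.6%, 61.4% and 62.3% in PRMT5-shRNA libraries. JUND took 29.4% to 39.3% and JUN 6.6% to 8.6%. These JUN subunits summed to 45.4, 50.4 and 45.4 FPKM in NC-shRNA and to 59.2, 52.4 and 53.8 FPKM in PRMT5-shRNA libraries. In these FPKM sums, which are not scaled by TMM, the groups did not overlap for either family. Of single genes in TMM-scaled CPM 11.0% were higher without overlap, a share that is not matched to sums of FPKM. FOSL2 and JUNB, which also separated alone, held the largest shares of these sums, so the sums are no separate results. In TMM-scaled CPM the JUN sums nearly met, at 119.2 at most in NC-shRNA and 119.5 at least in PRMT5-shRNA libraries. FPKM sums are mRNA levels and do not measure dimers.

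**Figure D3:**
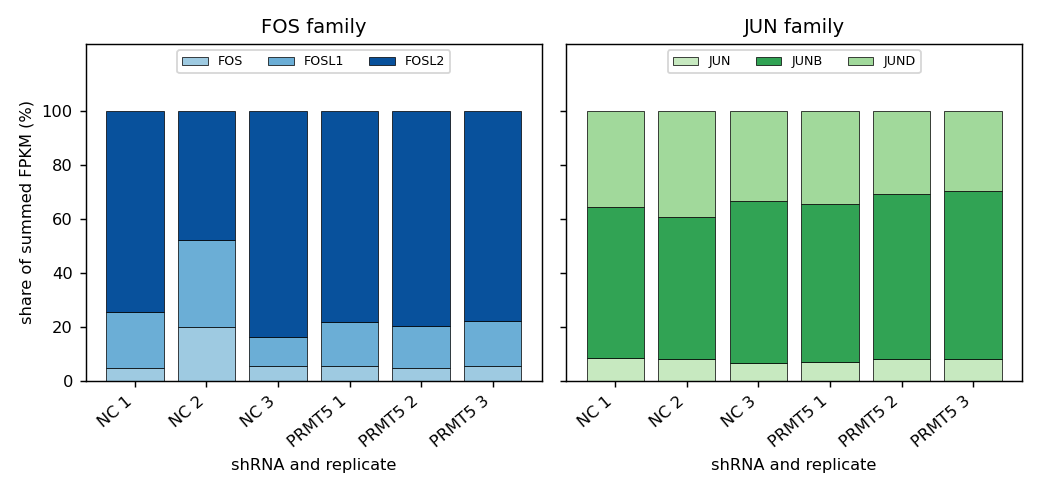
Share of the summed FPKM (vertical axis, percent) taken by each FOS subunit (first panel) and each JUN subunit (second panel) in each of the 6 libraries, as stacked bars. FOSL2 and JUNB hold the largest share in every library, and FOSL2 is smallest in NC-shRNA replicate 2 at 47.7%.

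In NC-shRNA, 8 members varied more between libraries than the median gene (SD of 0.116), all but JUNB at 0.0196 and IER3 at 0.0708. The SD of log2(CPM + 0.5) within groups, pooled over both, exceeded the median of 0.124 over 11639 genes with a mean of at least 5 CPM for 9 of the 10 members, JUNB at 0.0367 being the exception. FOSL2 had the largest at 0.699, followed by IER2 at 0.683, FOS at 0.389 and FOSL1 at 0.339. The SD was larger in NC-shRNA than in PRMT5-shRNA libraries for 8 members, all but JUNB and IER3, as it was for 54.9% of those genes. The highest NC-shRNA library was 3.48 times the lowest for FOSL2, 3.79 times for IER2 and 2.07 times for FOS. In PRMT5-shRNA libraries the same ratios were 1.08, 1.19 and 1.24, beside 1.15 for the median gene. With 3 libraries in each group, the difference in spread was not tested.

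The widest of these spreads came with NC-shRNA replicate 2. FOSL2 and IER2 were more than 2 times lower there than in every other library, whereas FOS was at 1.79 times the median of the others. Of 9963 genes with a mean of at least 10 CPM, 29 (0.291%) were so much lower in this library, and over the 6 libraries this share ranged from 0.201% to 0.331%. The counts in the other 5 libraries were 20, 21, 24, 33 and 33 genes, so 2 libraries held more such genes and 3 held fewer. This count covers falls in a single library and misses a change shared by 2. MYC, another immediate early gene, was at 232 CPM in NC-shRNA replicate 2 and 298 CPM in PRMT5-shRNA replicate 3, and at 10.8 to 15.5 CPM elsewhere. Without NC-shRNA replicate 2 the ratio of highest to lowest NC-shRNA library was 1.13 for FOSL2, 1.51 for IER2 and 1.16 for FOS. The ratio stayed at 1.94 for FOSL1, 1.93 for MAFF and 1.63 for EGR1. The low value of FOSL2 stood in both deposited tables. Its FPKM divided by its CPM varied only from 0.114 to 0.123 over the 6 libraries, about as narrowly as for JUNB (0.448 to 0.480). FPKM thus followed the counts, and the ratio is no separate check of the low value.

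**Figure D4:**
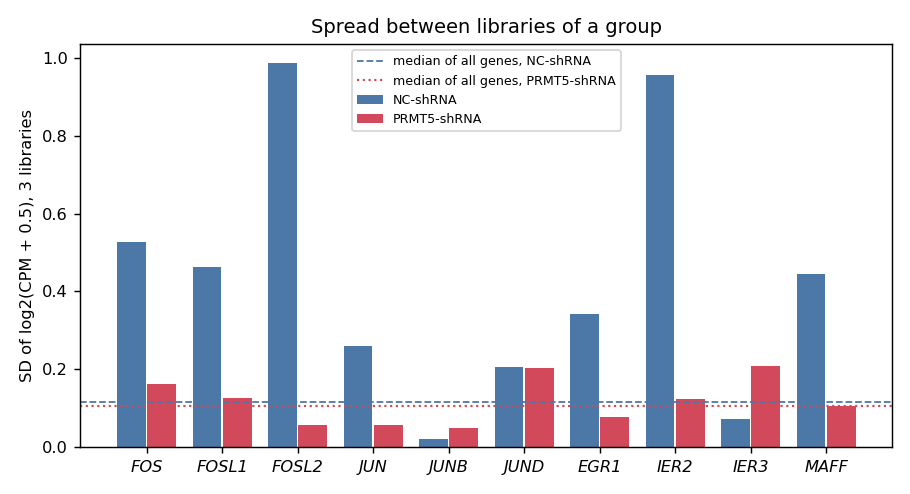
SD of log2(CPM + 0.5) between the 3 libraries of each group (vertical axis) for each member, with NC-shRNA and PRMT5-shRNA as separate bars and the median over 11639 genes in each group as lines. FOSL2 and IER2 reach 0.987 and 0.958 in NC-shRNA, and 8 of the 10 members have the larger SD in that group.

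The members were then read beside the other genes of the pathway. Of 21 other leucine zipper partners of AP-1, 19 were tested, of which 5 were higher and 0 lower at an unadjusted p under 0.05, beside 6.54% and 6.29% of all genes, and none passed the adjusted threshold. Their median log2 fold change was 0.14. The 5 were JDP2, MAFK, MAFA, ATF3 and ATF7. JDP2, a repressor that pairs with JUN, was at 32.5, 34.5 and 40.2 CPM in NC-shRNA and at 52.2, 55.4 and 51.3 CPM in PRMT5-shRNA libraries, with no overlap between the groups and a log2 fold change of 0.57 ± 0.0952 (SE; edgeR unadjusted p = 5.83e-04, adjusted p = 0.139). DESeq2 gave JDP2 an adjusted p of 5.6e-04 and edgeR's likelihood ratio test 0.0173, and over the 18 alternatives it ranged from 5.6e-04 to 0.384. ATF3, a stress-induced partner of JUN, was at 7.92, 9.71 and 7.92 CPM in NC-shRNA and at 9.75, 12.8 and 13.1 CPM in PRMT5-shRNA libraries, where the lowest knockdown library was barely above the highest control. MAFK, a small MAF protein like MAFF, was at 101, 113 and 98.4 CPM against 121, 128 and 130 CPM, a log2 fold change of 0.28 ± 0.0717 (SE; edgeR adjusted p = 0.228). MAFA, a large MAF factor, ranged from 1.04 to 1.68 CPM against 2.16 to 2.75 CPM, and ATF7, a CREB-related factor, from 65.3 to 75.2 CPM against 76.6 to 86.4 CPM.

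Of 37 other immediate early genes, 35 were tested, of which 5 were higher and 0 lower at an unadjusted p under 0.05. Of all genes, 6.54% were higher and 6.29% lower at that threshold. None of the 35 passed the adjusted threshold, and their median log2 fold change was 0.13. The 5 were GADD45A, ATF3, HES1, KLF4 and ARC. GADD45A, a stress-response gene of growth arrest, was at 19.2, 19.0 and 17.6 CPM in NC-shRNA and at 23.6, 26.4 and 28.8 CPM in PRMT5-shRNA libraries, a log2 fold change of 0.50 ± 0.103 (SE; edgeR unadjusted p = 0.0019, adjusted p = 0.185). HES1, a Notch-responsive repressor, ranged from 11.0 to 12.0 CPM against 13.5 to 15.5 CPM, KLF4, a zinc finger factor, from 33.3 to 37.1 CPM against 37.8 to 42.2 CPM, and ARC, best known in neurons, from 0.370 to 0.596 CPM against 0.695 to 1.14 CPM. Of these genes, 10 had every PRMT5-shRNA library above every NC-shRNA library and 2 the opposite, beside 11.0% and 10.7% of all genes. Of 26 regulators that induce immediate early genes, namely serum response factor cofactors, MAP kinases and CREB proteins, 0 were higher and 1 lower at an unadjusted p under 0.05, with a median log2 fold change of 0.04. The 1 was RPS6KA1, a kinase downstream of ERK, at 62.8, 55.4 and 59.0 CPM against 55.2, 44.3 and 49.9 CPM, and it missed that threshold in 9 of the 18 alternatives. None of 10 genes of JUN and FOS turnover and inhibition passed that threshold in either direction, and their median was -0.04.

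Of 40 genes known as AP-1 targets, 37 were tested, of which 12 were higher and 3 lower at an unadjusted p under 0.05. Of all genes, 6.54% were higher and 6.29% lower at that threshold, and this list was chosen with earlier results of these data known. The median log2 fold change of the 37 targets was 0.17. MMP1, an interstitial collagenase whose promoter is a classic AP-1 target, was the only one to pass the adjusted threshold. It rose from 0.283, 0.490 and 0.193 CPM in NC-shRNA to 3.52, 3.95 and 4.24 CPM in PRMT5-shRNA libraries, a log2 fold change of 3.58 ± 0.349 (SE; adjusted p = 0.0341 in edgeR). Over the 18 alternatives its adjusted p ran up to 0.273. FN1, fibronectin, was at 5012, 6072 and 5711 CPM against 7251, 6947 and 7139 CPM, a log2 fold change of 0.35 ± 0.0738 (SE; edgeR adjusted p = 0.193). PLAU, urokinase, was at 2.06, 3.26 and 3.07 CPM against 4.45, 5.38 and 5.51 CPM. DUSP4, a MAP kinase phosphatase, ranged from 172 to 186 CPM against 203 to 218 CPM. KRT17, a keratin, lay the other way, at 419, 385 and 421 CPM against 293, 350 and 331 CPM (log2 fold change -0.33, edgeR adjusted p = 0.218).

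Markers of other cell types were measured beside these values. Endothelial markers summed to 14.4 to 15.0 CPM in NC-shRNA and to 19.1 to 23.2 CPM in PRMT5-shRNA libraries. Of the 6 tested, 4 were higher at an unadjusted p under 0.05, beside 6.54% of all genes. VWF and KDR were at 0 in every NC-shRNA library. VWF, with 128, 105 and 122 counts in PRMT5-shRNA libraries, passed the adjusted threshold (adjusted p = 0.0341 in edgeR). Fibroblast markers summed to 108 to 134 CPM against 96.9 to 117 CPM, with COL1A2 and PDGFRA at 0 in all libraries. Blood cell markers summed to 16.9 to 21.7 CPM against 15.8 to 18.5 CPM, with CD3E at 0 in all libraries. The part of the endothelial, epithelial and heat shock genes in the differences of AP-1 and immediate early genes was not tested.

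**Figure D5:**
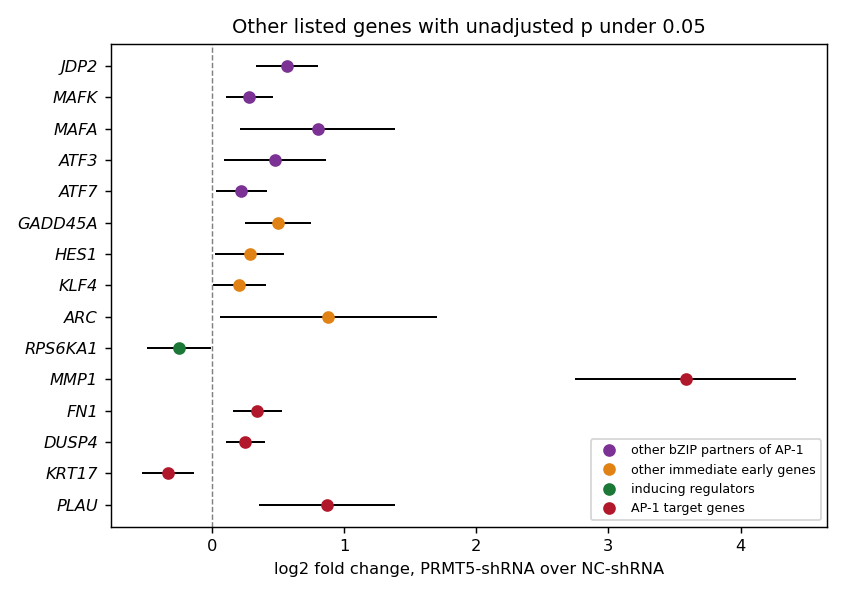
Log2 fold change, PRMT5-shRNA minus NC-shRNA, of genes named from the other lists (points) with 95% intervals (bars) from edgeR's quasi-likelihood fit. The genes shown were chosen for an unadjusted p under 0.05, so each interval lies off 0 by that choice. FOSB and MYC are not shown. MMP1 lies farthest from 0 at 3.58 and is the only one of them past the adjusted threshold.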

How the data were processed

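RNA of NCI-H460 cells was sequenced on an Illumina HiSeq from stranded poly(A) libraries, per the methods. The submitters' processing notes name cutadapt 1.9, HISAT2 2.0.4, StringTie 1.3.4d and GRCh38. The authors deposited estimated counts for each gene, already whole numbers and not normalized, and FPKM values, normalized for length and library size. Of the counts from 1 to 20, 36.4% were multiples of 4, more than the 25% of an even spread, so a count may not stand for a single read, and counts were also divided by 4 as an alternative. How counting treated strand and overlapping genes is not given in the sources used here.

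Counts were scaled by TMM and filtered with filterByExpr (20295 of 58825 genes kept) in edgeR 4.0.16, then tested by its quasi-likelihood test with Benjamini-Hochberg adjustment over all genes tested. SEs were derived from the F statistic, and 95% intervals cover the spread between libraries. For single members the exact permutation test, two-sided, was added, whose smallest p is 0.10. DESeq2 1.42.0 and limma 3.58.1 were alternatives, among 18 in all. The fits were tested on simulated data. Positions came from GENCODE 29, which held 58552 of the identifiers, and promoters from RefSeq.

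Groups and replicate numbers came from the sample labels. Same-numbered libraries did not deviate together (correlations 0.0012, -0.039 and 0.064 over 10487 genes), and no pair of libraries matched within sampling noise, the smallest chi-square per degree of freedom being 42.5 over 15 pairs. The members, and the lists of other genes, were chosen with earlier results of these data known. All 10 members were named, and up to 6 genes of each other pathway list with the smallest p under 0.05, together with FOSB and ATF3. MYC was named for its spread between libraries. A gene of these lists is not reported here.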

Additional observations from a re-analysis of the deposited data

How the results depend on the processing

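No member passed the adjusted threshold in any of the 18 alternatives, and none was lower at an unadjusted p under 0.05. JUNB stayed higher in all of them, with log2 fold changes of 0.26 to 0.34. The number of genes called over the whole table, 14, was 413 by DESeq2, 184 by edgeR's likelihood ratio test, 5 by limma on log2(FPKM + 1) without a filter and 0 with a replicate block (edgeR, 2382 at an unadjusted p under 0.05), and 8 (without NC-shRNA replicate 2) to 25 (without NC-shRNA replicate 3) when 1 library was left out. The labels' numbers did not pair the libraries, and with the replicate block the log2 fold change of JUNB was 0.29 (edgeR unadjusted p = 0.0083). Leaving out 1 library gave 1 to 2 members higher at an unadjusted p under 0.05, JUNB joined by FOSL2, MAFF or IER3, and 2 to 4 members without overlap. Over all genes, 1963 of 21260 (without PRMT5-shRNA replicate 3) to 2854 of 21288 (without NC-shRNA replicate 3) passed that threshold in either direction. Groups of fewer libraries separate more easily by chance, so the shares without overlap given for all 6 libraries do not apply here. No matching share over all genes is given for these fits, so the 2 to 4 members without overlap are not read as a result. JUND, at -0.03, became 0.024 by library totals alone, 0.032 by limma on log2(FPKM + 1) with or without a filter and 0.034 on log2(FPKM + 0.1). When 1 library was left out, log2 fold changes ranged from -0.16 to 0.093 for JUND, from -0.36 to 0.22 for FOS, from -0.33 to 0.52 for IER2 and from -0.0030 to 0.23 for JUN. Ranges were 0.055 to 0.51 for FOSL1, 0.046 to 0.37 for EGR1, 0.079 to 0.29 for IER3 and 0.21 to 0.67 for MAFF. Of the other genes named at an unadjusted p under 0.05, RPS6KA1 missed it in 9 of 18 alternatives, KLF4 in 7, ATF7 in 6, HES1 in 5, ATF3 in 4 and ARC in 5 of 15. MMP1 lost its adjusted call with the replicate block, in limma without a filter and without NC-shRNA replicate 1 or any 1 PRMT5-shRNA library. By DESeq2, JDP2, GADD45A, FN1, KRT17 and PLAU also passed the adjusted threshold. Fits that leave out 1 library also rest on fewer libraries, and the cause of the differences between these analyses was not tested. Scalings moved the median of all genes to 0.06 at most.

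With 3 libraries in each group and SDs as wide as those of FOSL2 and IER2, the intervals of most members span changes in either direction, and a p above the threshold does not show equal levels. Steady-state mRNA of unstimulated cells does not measure induction, protein or AP-1 binding. FPKM levels rest on the authors' gene models.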
